A study of Homo sapiens with 12 samples.

Results

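Transcripts of 10 genes of the NF-kB pathway were followed in MDA-MB-231 cells, an established line of human triple-negative breast cancer, after a change of glucose, of cariporide or of both. The genes were chosen by symbol as subunits of NF-kB (RELA, RELB, NFKB1, NFKB2), its feedback inhibitors (NFKBIA, NFKBIE, TNFAIP3, TNIP1) and inducible genes of the pathway (BIRC3, TNFAIP2). All 10 symbols were found among the 40929 rows of each count table, and all 10 passed the filter on low counts, which left 15104 genes for testing. The groups were LGCAR (5 mM glucose with 25 µM cariporide), LG (5 mM glucose without the drug), CAR (10 mM glucose with 25 µM cariporide) and NG (10 mM glucose without the drug), with 3 libraries each, all harvested at 48 h. All 4 groups carry the wild-type genotype given in the labels, grew with fetal bovine serum and come from 1 cell line. Cariporide inhibits the sodium-proton exchanger NHE1. In brief, TNFAIP3 and BIRC3 were higher in LG than in NG, and TNIP1 was lower in LGCAR than in NG, with any 1 library left out. NFKBIA in LG against NG and TNIP1 in LGCAR against CAR also passed the test, but lost the call whichever of the 6 compared libraries was left out. BIRC3 in LGCAR against NG passed as well and lost the call without some single libraries. No subunit passed the test in the fit over all 12 libraries.

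NF-kB is a family of dimeric transcription factors that inhibitors of the IkB family hold in the cytoplasm of resting cells. When a receptor signals, the IkB kinase marks the inhibitor for destruction, the dimer enters the nucleus and it switches on its targets. Among those targets are its own inhibitors, NFKBIA above all and TNFAIP3, so the RNA of these genes is part of a negative feedback loop. MDA-MB-231 cells are known for constant NF-kB activity and for secretion of the chemokines it drives.

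Promoter sequences of the genes whose RNA passed a test are shown because TNFAIP3, NFKBIA and BIRC3 rose in LG and TNIP1 fell in LGCAR, so that their elements can be set beside each other. They come from RefSeq on GRCh38.p14 and span 250 bases before to 50 after an annotated start, read 5′ to 3′ on the strand of the gene. Capitals mark matches on either strand to the kappaB consensus, a decamer of 3 G, a purine, any 2 bases, 2 pyrimidines and 2 C that NF-kB dimers bind.
TNFAIP3: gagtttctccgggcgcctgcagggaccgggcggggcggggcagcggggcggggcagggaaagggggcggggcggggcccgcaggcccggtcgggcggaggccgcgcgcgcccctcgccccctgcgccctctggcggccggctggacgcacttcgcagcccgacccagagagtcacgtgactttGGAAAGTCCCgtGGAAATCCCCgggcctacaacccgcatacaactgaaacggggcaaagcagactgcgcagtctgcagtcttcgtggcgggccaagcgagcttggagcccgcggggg
NFKBIA: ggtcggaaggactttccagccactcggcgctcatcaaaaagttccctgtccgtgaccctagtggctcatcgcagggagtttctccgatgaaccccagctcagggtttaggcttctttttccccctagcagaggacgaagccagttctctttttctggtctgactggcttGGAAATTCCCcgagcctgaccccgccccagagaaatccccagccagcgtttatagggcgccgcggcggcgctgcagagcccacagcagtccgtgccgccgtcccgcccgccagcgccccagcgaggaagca
BIRC3: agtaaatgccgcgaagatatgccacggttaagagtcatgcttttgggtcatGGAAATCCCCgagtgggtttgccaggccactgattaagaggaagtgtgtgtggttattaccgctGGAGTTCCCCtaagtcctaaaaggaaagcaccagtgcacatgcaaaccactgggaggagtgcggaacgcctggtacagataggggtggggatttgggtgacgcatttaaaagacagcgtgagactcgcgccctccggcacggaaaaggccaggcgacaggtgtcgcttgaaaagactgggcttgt
TNIP1: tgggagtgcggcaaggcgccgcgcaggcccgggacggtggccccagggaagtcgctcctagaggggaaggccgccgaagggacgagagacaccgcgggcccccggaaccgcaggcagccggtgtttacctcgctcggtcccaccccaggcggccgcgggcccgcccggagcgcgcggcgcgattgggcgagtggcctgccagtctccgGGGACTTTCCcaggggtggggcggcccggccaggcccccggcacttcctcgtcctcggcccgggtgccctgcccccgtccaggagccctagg
These windows are chr6:137867009-137867308 on the plus strand for TNFAIP3, chr14:35404700-35404999 on the minus strand for NFKBIA, chr11:102317234-102317533 on the plus strand for BIRC3 and chr5:151080985-151081284 on the minus strand for TNIP1.

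The TNFAIP3 window held 2 matches, at -67 to -58 and at -55 to -46 from the start, separated by only the bases gt. BIRC3 also held 2, at -199 to -190 and at -135 to -126, NFKBIA held 1 at -81 to -72 and TNIP1 held 1 at -42 to -33. Read on the strand that fits the consensus, the first match of TNFAIP3 and that of TNIP1 were the same decamer, GGGACTTTCC, which also stood at -21 to -12 from a start of NFKB2. The second match of TNFAIP3 and the first of BIRC3 were both GGGGATTTCC. The match of NFKBIA, GGGAATTTCC, was also found at -49 to -40 in NFKB1. Of the 8 genes of the group that have a window in the RefSeq table, 6 held a match (those 4, NFKB1 and NFKB2), while RELA and TNFAIP2 held none in theirs. Over all 35116 windows of 300 bases in the RefSeq set, 3956 (11.27%) held a match, or 13.25% of genes. Of the 13 windows of these 8 genes, 7 held a match. TNIP1 and NFKB1 each have another annotated start whose window held no match, and so does NFKB2 beside 2 that did. The starts used for TNFAIP3 and TNIP1 lie inside the RefSeq spans of these genes, whose 5′ ends are at 137866349 and 151087685. Those of NFKBIA and BIRC3 lie at the 5′ ends of the spans. The only TNFAIP2 window, chr14:103123211-103123510, lies inside the span of that gene, which begins at 103121469. The 5′ end of the TNFAIP2 span was therefore not searched. A match describes letters in the window and does not show that a factor was bound there.

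**Figure D1:**
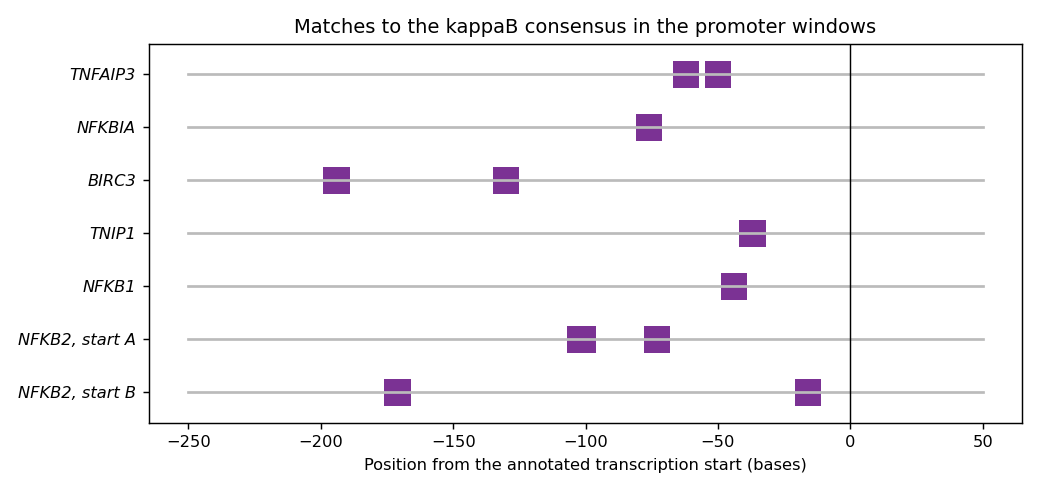
Positions of matches to the kappaB consensus (bars) in the promoter windows that held at least 1 match, in bases from the annotated transcription start, with the grey line spanning each window and the 2 NFKB2 windows named start A and start B. All matches lie before the start, those of TNFAIP3 at -67 to -46 and that of TNIP1 at -42 to -33.

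The library totals ran from 18069004 to 24837409 counts. Genes of cytosolic ribosomal RNA took up 10.2% ± 1.12 of the LGCAR counts, 8.65% ± 0.649 in LG, 7.87% ± 0.723 in CAR and 9.48% ± 1.67 in NG (SD, n = 3 each). The LGCAR libraries (9.32% to 11.5%) did not overlap in this share with the CAR libraries (7.10% to 8.53%). Of markers that define other cell types, CD3E (T cells) had no count in any library. Of the others, DCN (fibroblasts) and CDH5 (endothelium) had at most 2 counts, VWF (endothelium) at most 7 and PECAM1 (endothelium) at most 57. The 3 endothelial markers summed to 1.74 to 2.31 CPM in LGCAR, 2.07 to 2.59 in LG, 1.49 to 2.04 in CAR and 2.04 to 2.66 in NG. The 6 immune markers summed to 61.9 to 65.8 CPM in LGCAR, 68.7 to 75.6 in LG, 56.2 to 63.6 in CAR and 61.2 to 62.8 in NG, of which CD68, which many tumour lines express, held 53.9 to 73.2 CPM. The 4 fibroblast markers summed to 20.5 to 22.0 CPM in LGCAR, 17.1 to 20.7 in LG, 19.6 to 20.1 in CAR and 17.98 to 20.2 in NG. The immune sum was thus highest in LG, and the fibroblast sum in LGCAR lay above that in NG; their part in the results was not tested. The labels call the cells epithelial; KRT8, KRT18 and KRT19 were at 265 to 506 CPM, whereas the adhesion proteins EPCAM and CDH1 were at 8.74 to 13.8 and 0.954 to 2.47 CPM beside VIM at 1611 to 1864 CPM. The 5 epithelial markers summed to 1036 to 1124 CPM in LGCAR and 1110 to 1179.6 in LG, both wholly below the 1204 to 1274 in NG, and to 1094 to 1242 in CAR. The 4 markers of a mesenchymal state summed to 3220 to 3246 CPM in LG, wholly above the 3078 to 3138 in LGCAR, 3072 to 3100.3 in CAR and 3132 to 3178 in NG. The part of these shifts in the results was not tested either. Fewer producing cells and less RNA per cell cannot be told apart in such bulk libraries. In LG 3, 8 of the 10 NF-kB genes had the highest value of the 3 LG libraries, against 40.27% of all tested genes, so calls that use LG are also given without it. Likewise 7 of the 10 were highest in CAR 1 among the CAR libraries (41.81% of all genes), and 6 were lowest in LG 2 (25.14%). Among those of LGCAR, 6 were highest in LGCAR 2 (33.66%) and 7 lowest in LGCAR 3 (33.02%).

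Levels of different genes were compared as CPM (counts scaled to library size with TMM factors) per kilobase of merged exons in GENCODE 29. The merged length holds the exons of all annotated transcripts, such as 5464 bases for RELA and 7518 for BIRC3. The order of genes therefore depends on this choice of length, and other lengths were not tested. Across the 12 libraries TNIP1 had the highest level, with a mean of 65.3 and a range of 58.9 to 72.3 CPM per kilobase, followed by TNFAIP2 with 49.3 (46.0 to 52.5) and NFKBIA with 45.8 (37.7 to 60.7). Among the subunits NFKB2 averaged 26.8 CPM per kilobase, RELA 21.2, RELB 13.7 and NFKB1 10.96. BIRC3 averaged 21.6 and NFKBIE 15.2 CPM per kilobase. TNFAIP3 was the lowest of the 10, with 5.38 (4.31 to 7.66) CPM per kilobase, below every library of every other gene in the group. The order of some neighbours depended on the group. BIRC3 lay wholly above RELA in LGCAR (21.3 to 23.2 against 19.5 to 20.7 CPM per kilobase) and in LG (23.6 to 24.7 against 20.9 to 21.7), but wholly below it in CAR (19.9 to 20.7 against 21.3 to 22.6) and NG (19.1 to 20.01 against 21.2 to 22.2). NFKBIA overlapped with TNFAIP2 in LG, at means of 54.2 and 51.0 CPM per kilobase, and lay wholly below it in the other 3 groups. NFKBIE overlapped with RELB in LGCAR and LG and lay wholly above it in CAR and NG. The libraries of all other neighbours were apart within every group. No exon base of these genes was shared with a gene on the same strand, and 1.881% of TNFAIP3 and 0.165% of RELA with one on the opposite strand.

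**Figure D2:**
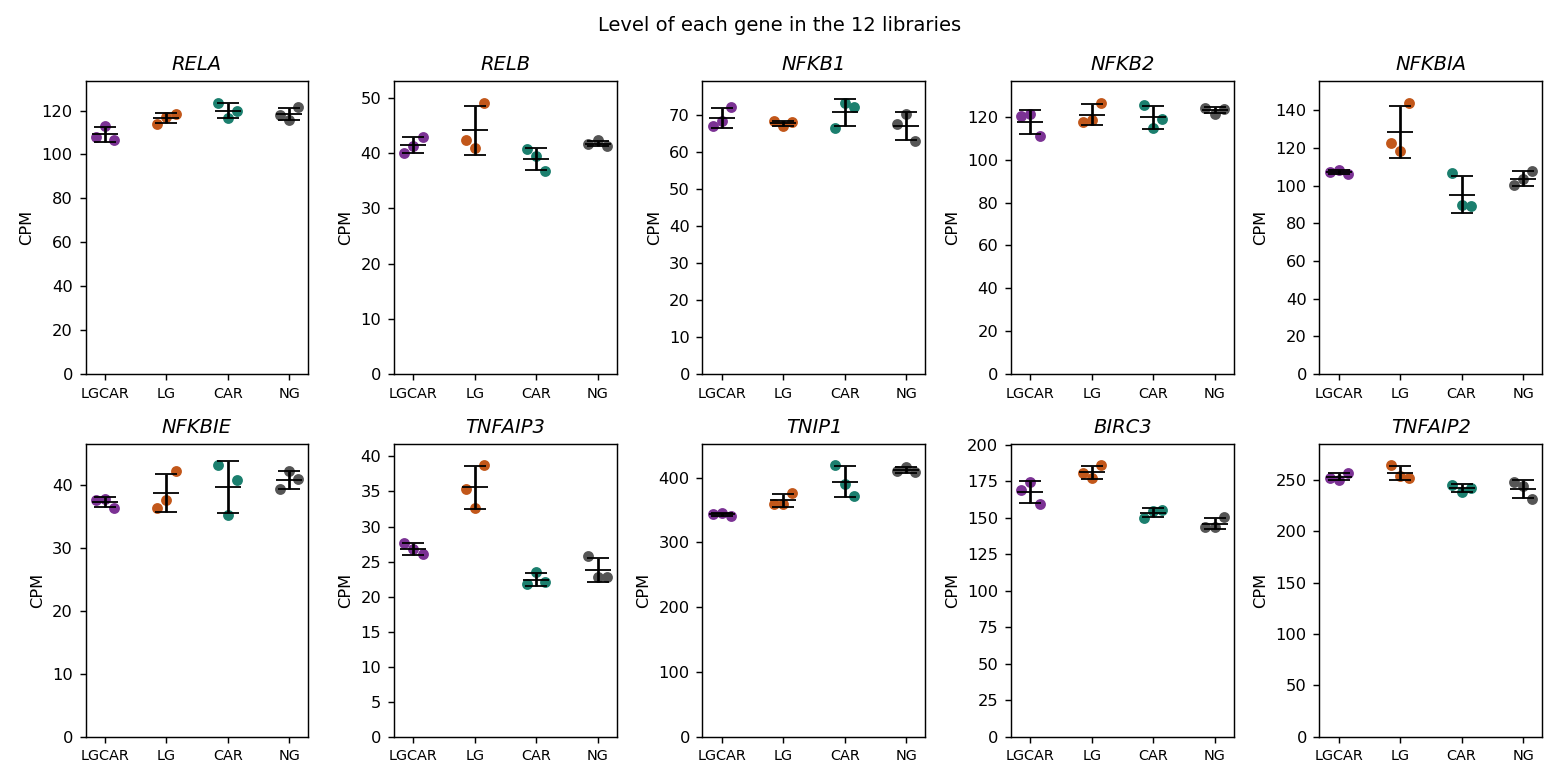
CPM of each of the 10 genes in each of the 12 libraries (points), with the mean and SD of each group of 3 (bars), in the order LGCAR, LG, CAR and NG; each panel has its own axis from 0. TNFAIP3 stands at 32.7 to 38.7 CPM in LG, above the other 9 libraries, while TNIP1 lies at 341 to 345 CPM in LGCAR, below the other 9.

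LG was set against NG to see the effect of lower glucose in the absence of the drug. Of the 10 genes 3 rose, 7 were not called and none fell, where a call is an adjusted p under 0.05 from edgeR's quasi-likelihood test, corrected over all tested genes by Benjamini and Hochberg. Over all genes 1.73% were called, 1% as higher and 0.728% as lower, which is 151 against 110 genes; with library totals as the only scaling it was 178 against 78. Same-numbered libraries of LG and NG correlated weakly in their deviations from group means (r of 0.151 to 0.179). Between all groups, r was over 0.1 in 7 of 18 same-numbered pairs and in 12 of 36 other pairs. With replicate number as a block in a fit of LG and NG alone, 1678 genes were called, against 261 in the fit over all groups. That block left 2 residual degrees of freedom, and in it 4 of the 10 were called: TNFAIP3, BIRC3, NFKBIA and, as lower, TNIP1. The libraries of LG and NG did not overlap for 5 of the 10, 4 higher and 1 lower in LG, against 19.4% of all genes (9.86% higher, 9.51% lower). The median log2 fold change of the 10 was 0.049, beside 0.0065 for all tested genes. Most of the group stayed near 0, while TNFAIP3, NFKBIA and BIRC3 were at 0.307 or above. LG, CAR and LGCAR were each compared with the same NG libraries, so these comparisons are not independent of each other.

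TNFAIP3 encodes a ubiquitin-editing enzyme that ends NF-kB signalling. It lies on chromosome 6 (137866349 to 137883312). Its CPM was 27.6, 26.8 and 26.0 in LGCAR 1 to 3, 35.4, 32.7 and 38.7 in LG 1 to 3, 21.8, 23.5 and 22.0 in CAR 1 to 3, and 25.8, 22.8 and 22.8 in NG 1 to 3. Every LG library was above every other library, and every LGCAR library was above every CAR and NG library. TNFAIP3 averaged 35.6 ± 3.03 CPM in LG and 23.8 ± 1.75 CPM in NG (SD, n = 3 each), a rise of 1.49-fold (log2 fold change 0.58, SE 0.0713, edgeR adjusted p = 5.56e-04). It ranked 10th by p among all tested genes in that comparison. The rise kept its call with any of the 6 libraries left out, and without LG 3 it was 0.51 (edgeR adjusted p = 0.00106).

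The TNFAIP3 level in LGCAR lay between those of LG and NG. At 26.8 ± 0.798 CPM in LGCAR, its log2 fold change was 0.17 against NG (95% confidence interval 0.016 to 0.33, edgeR adjusted p = 0.137) and 0.26 against CAR (0.10 to 0.41, edgeR adjusted p = 0.0863), neither of them called. Against LG the log2 fold change was -0.41 (SE 0.0714), the third smallest p of all tested genes (2.85e-05 before adjustment) but with an edgeR adjusted p of 0.144. That call depended on the method, since DESeq2 gave an adjusted p of 0.00393 and edgeR without a filter on low counts 0.00102. Without LG 3 it was -0.35 (edgeR adjusted p = 0.514). For TNFAIP3 the log2 fold change with the drug differed by -0.32 between 5 and 10 mM glucose (the value at 5 mM minus that at 10 mM, 95% confidence interval -0.54 to -0.10). Its p in the edgeR fit was 0.00613 before adjustment and 0.9999 after.

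NFKBIA encodes IkB-alpha, the inhibitor that NF-kB induces most directly and that pulls it back out of the nucleus. It lies on chromosome 14 (35401513 to 35404749). Its CPM was 107, 108 and 106 in LGCAR 1 to 3, 123, 119 and 144 in LG 1 to 3, 107, 89.8 and 89.3 in CAR 1 to 3, and 100.2, 104 and 108 in NG 1 to 3. All LG libraries were above all others, with LG 3 well above LG 1 and LG 2. The means were 129 ± 13.7 CPM in LG and 104 ± 3.79 CPM in NG (SD, n = 3 each), a rise of 1.24-fold (log2 fold change 0.31, SE 0.0747, edgeR adjusted p = 0.0474). That call was lost whichever of the 6 libraries was left out (log2 fold changes of 0.21 to 0.36, with edgeR adjusted p between 0.0622 and 0.193), with the lowest value without LG 3. With replicate number as a block the edgeR adjusted p was 0.0898 over all groups and 4.57e-05 in LG and NG alone. RLE size factors, library totals, the compared groups alone and the loss of both NG 1 and LGCAR 3 also ended the call (edgeR adjusted p between 0.0526 and 0.209). Against LG the log2 fold change in LGCAR was -0.26 (SE 0.0748), with non-overlapping libraries and an edgeR adjusted p of 0.338, and -0.17 without LG 3. NFKBIA in LGCAR did not differ detectably from NG (log2 fold change 0.047, 95% confidence interval -0.11 to 0.21).

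NFKBIE encodes IkB-epsilon, a slower inhibitor of the same family, on chromosome 6 (44258166 to 44265551). It averaged 37.3 ± 0.759 CPM in LGCAR, 38.7 ± 3.06 in LG, 39.7 ± 4.07 in CAR and 40.8 ± 1.43 in NG (SD, n = 3 each). It was not called in any comparison, and its interval for LG against NG, -0.23 to 0.077 on the log2 scale, lies wholly below that of NFKBIA (0.15 to 0.47). The difference between these IkB genes was not itself tested.

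TNIP1 encodes a ubiquitin-binding partner of TNFAIP3 that also restrains the pathway, on chromosome 5 (151029943 to 151087685). Its CPM was 343, 345 and 341 in LGCAR 1 to 3, 359.9, 359 and 375 in LG 1 to 3, 419, 390.2 and 372 in CAR 1 to 3, and 410.5, 416 and 408 in NG 1 to 3. The LGCAR libraries were all below the other 9, and those of LG were all below those of NG. TNIP1 averaged 343 ± 1.85 CPM in LGCAR and 411 ± 4.22 CPM in NG (SD, n = 3 each). On the log2 scale it fell by 0.26 (SE 0.0481), at an edgeR adjusted p of 0.00661. This fall kept its call with any 1 of the 6 libraries left out. With NG 1 and LGCAR 3, the libraries highest in ribosomal RNA, both left out, the log2 fold change was -0.27 and the call was lost, at an edgeR adjusted p of 0.0557.

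In LG, TNIP1 was at 365 ± 9.35 CPM (SD, n = 3), with a log2 fold change of -0.17 against NG (SE 0.0480) that edgeR did not call (adjusted p = 0.0804) and DESeq2 did (adjusted p = 0.0132). With the ribosomal RNA share as a covariate edgeR called it as well (adjusted p = 0.0215), as it did with replicate number as a block in LG and NG alone (-0.18, adjusted p = 4.87e-04). Without LG 3 it was -0.20 (edgeR adjusted p = 0.0534). Against CAR, at 394 ± 23.5 CPM (SD, n = 3), TNIP1 fell by 0.20 on the log2 scale in LGCAR (SE 0.0481, edgeR adjusted p = 0.0470). That call ended whichever of the 6 libraries was left out, at edgeR adjusted p between 0.0510 and 0.154, and with replicate number as a block (0.0966). The compared groups alone (0.0897) and the loss of both NG 1 and LGCAR 3 (0.184) ended it too. It also ended with the ribosomal RNA share, which did not overlap between LGCAR and CAR, as a covariate (log2 fold change -0.16, edgeR adjusted p = 0.385).

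BIRC3 encodes an inhibitor of apoptosis that acts as a ubiquitin ligase at the TNF receptor and is a classical NF-kB target. It lies on chromosome 11 (102317484 to 102339403). Its CPM was 169, 175 and 159.8 in LGCAR 1 to 3, 181, 177 and 186 in LG 1 to 3, 149.9, 155 and 156 in CAR 1 to 3, and 144, 144 and 150.5 in NG 1 to 3. The LG libraries were all above the LGCAR libraries, and the LGCAR libraries were all above those of CAR and NG. BIRC3 averaged 181 ± 4.42 CPM in LG and 146 ± 3.87 CPM in NG (SD, n = 3 each), a rise of 1.24-fold (log2 fold change 0.31, SE 0.0465, edgeR adjusted p = 0.00286) that kept its call without any 1 of the libraries. It was 0.29 without LG 3.

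In LGCAR, BIRC3 was at 168 ± 7.51 CPM (SD, n = 3) and rose by 0.20 on the log2 scale against NG (SE 0.0467, edgeR adjusted p = 0.0195). The call was lost when NG 2, NG 3, LGCAR 1 or LGCAR 2 was left out, at log2 fold changes of 0.17 to 0.22 and edgeR adjusted p between 0.0587 and 0.0977. Leaving out NG 1 and LGCAR 3 at once also ended it (0.0634). Against CAR it was 0.13 and against LG -0.11, neither of them called (edgeR adjusted p = 0.161 and 0.403). For BIRC3 the change with the drug differed by -0.18 between 5 and 10 mM glucose (again 5 mM minus 10 mM, 95% confidence interval -0.32 to -0.043). Its p in the edgeR fit was 0.0134 before adjustment and 0.9999 after.

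TNFAIP2 encodes a cytoplasmic protein of membrane protrusions that was found as a gene induced by TNF, on chromosome 14 (103121469 to 103137439). Its CPM was 252, 249.9 and 257 in LGCAR 1 to 3, 264, 254 and 252 in LG 1 to 3, 245, 238 and 242 in CAR 1 to 3, and 248, 244 and 231 in NG 1 to 3. The 6 libraries at 5 mM glucose were all above the 6 at 10 mM, but by little. Its log2 fold change was 0.090 in LG against NG (95% confidence interval -0.0026 to 0.18, edgeR adjusted p = 0.343) and 0.069 in LGCAR against NG (-0.024 to 0.16, edgeR adjusted p = 0.308).

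RELA encodes the main activating subunit, on chromosome 11 (65653601 to 65663857). It averaged 109 ± 3.40 CPM in LGCAR, 116 ± 2.26 in LG, 119.97 ± 3.56 in CAR and 118 ± 2.87 in NG (SD, n = 3 each). The LGCAR libraries, at 107 to 113 CPM, were all below the other 9, which ran from 114 to 124 CPM. The log2 fold changes of RELA in LGCAR were -0.12 against NG (SE 0.0465, edgeR adjusted p = 0.109), -0.14 against CAR (edgeR adjusted p = 0.144) and -0.093 against LG (edgeR adjusted p = 0.432), so none passed the test. With replicate number as a block in LGCAR and NG alone it was -0.13 and was called (edgeR adjusted p = 0.0482). That fit, added after seeing the data, called 3752 genes, against 1322 in the fit over all groups. RELA was called under no other alternative for LGCAR against NG. In LG against NG the log2 fold change of RELA was -0.025, with a 95% confidence interval of -0.12 to 0.073.

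RELB, the subunit of the alternative pathway on chromosome 19 (45001464 to 45038192), averaged 41.4 ± 1.45 CPM in LGCAR, 44.1 ± 4.39 in LG, 38.9 ± 2.04 in CAR and 41.7 ± 0.527 in NG (SD, n = 3 each). Its mean in LG was raised by LG 3 at 49.1 CPM, beside 42.4 and 40.8 CPM in LG 1 and LG 2. Its log2 fold change against NG was 0.080, and -0.0092 without LG 3. NFKB1, on chromosome 4 (102501359 to 102617302), and NFKB2, on chromosome 10 (102394110 to 102402529), encode precursors that are processed to DNA-binding subunits. NFKB1 lay between 62.9 and 73.2 CPM in all 12 libraries and NFKB2 between 111 and 127 CPM. For LG against NG the 95% confidence intervals of the log2 fold change were -0.10 to 0.14 for NFKB1, -0.13 to 0.083 for NFKB2 and -0.061 to 0.22 for RELB. These intervals exclude a rise of the size seen for TNFAIP3.

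**Figure D3:**
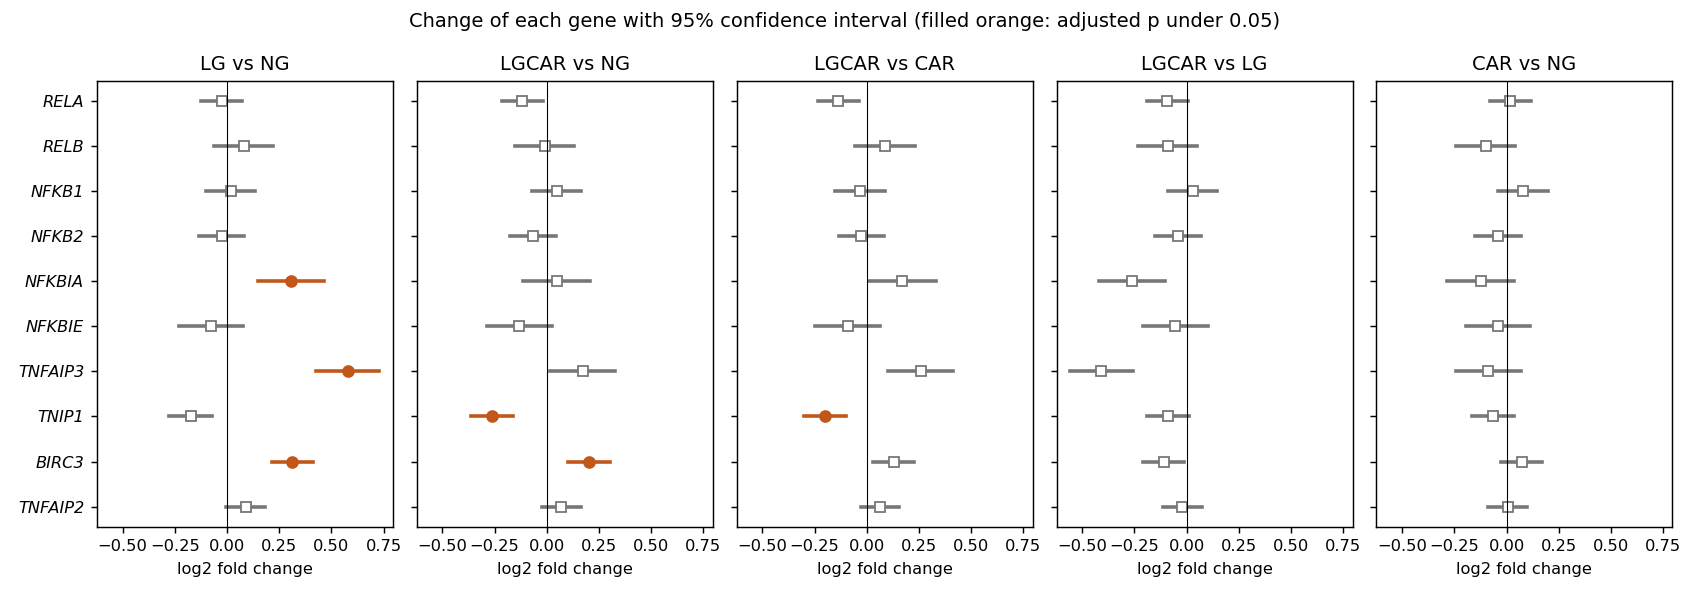
Log2 fold change (horizontal axis) of each gene in 5 comparisons, with bars for the 95% confidence interval; filled orange points have an edgeR adjusted p under 0.05 and open squares do not. TNFAIP3, NFKBIA and BIRC3 stand at 0.58, 0.31 and 0.31 in LG against NG, and no point is filled in LGCAR against LG or in CAR against NG.

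LGCAR was set against NG to see both changes together. Of the 10 genes 1 rose (BIRC3), 1 fell (TNIP1) and 8 were not called, and over all tested genes 8.75% were called (4.63% higher, 4.12% lower). These are 700 higher and 622 lower genes, against 644 and 762 with RLE size factors and 628 and 895 with no filter. With replicate number as a block in LGCAR and NG alone, 3752 genes were called, against 1322 over all groups. Of the 10, 3 were called in that fit (BIRC3, TNIP1 and RELA), a share near that of all genes. Same-numbered libraries of LGCAR and NG correlated at 0.136 to 0.475, and those with different numbers at -0.519 to 0.362. Libraries did not overlap for 7 of the 10, 3 higher and 4 lower in LGCAR, against 38.2% of all genes (20.7% higher, 17.5% lower). In LGCAR against CAR, the effect of lower glucose under the drug, TNIP1 was the 1 gene called, and it fell; of all genes 1.65% were called, 0.973% as higher and 0.675% as lower. That balance of 147 higher to 102 lower genes turned to 94 and 257 with library totals as the only scaling, and to 155 and 236 with no filter. Libraries did not overlap there for 5 of the 10, 3 higher and 2 lower in LGCAR, against 25.3% of all genes (13.4% higher, 11.9% lower).

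Cariporide alone left all 10 uncalled. In CAR against NG the log2 fold changes ran from -0.12 (NFKBIA) to 0.079 (NFKB1). None was called by edgeR (0% of all genes) or by DESeq2 (2 of all genes). None had an unadjusted p under 0.05 in edgeR's model, beside 684 of the 15104 genes. Libraries did not overlap for 1 of the 10, RELB, which was lower in CAR, against 9.11% of all genes (4.44% higher, 4.67% lower). At 5 mM glucose, LGCAR against LG, 9 of the 10 had a negative log2 fold change, and the median was -0.089 beside -0.0014 over all tested genes. Of these, NFKBIE and NFKB2 turned positive under some alternatives (up to 0.028 and 0.0070), while the others stayed negative. None of the 10 was called by edgeR there (0.00662% of all genes), 3 had an unadjusted p under 0.05 (TNFAIP3, NFKBIA and BIRC3) and DESeq2 called 1, TNFAIP3; over all 15104 genes these numbers were 1801 and 20. Libraries did not overlap for 5 of the 10, all lower in LGCAR (TNFAIP3, NFKBIA, RELA, BIRC3 and TNIP1), against 21.3% of all genes (10.9% higher, 10.5% lower). For the difference between the cariporide changes at the 2 glucose levels, edgeR and DESeq2 called none of the 10 (edgeR 0.00662% of all genes), and 2 had an unadjusted p under 0.05 in edgeR's model, beside 473 of the 15104.

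Other genes of the pathway were described by 4 lists, 100 genes in all, that leave out the 10. Their counts stand beside 1.73% of all genes called for LG against NG, 8.75% for LGCAR against NG and 1.65% for LGCAR against CAR, and shares near these are not particular to a list. Among 20 tested ligands and receptors none was called in LG against NG, and 4 fell in LGCAR against NG with none rising. These were IL1B, an inflammatory cytokine, at 4.43 ± 0.726 CPM in LGCAR and 6.76 ± 0.198 in NG (SD, n = 3 each; log2 fold change -0.60, edgeR adjusted p = 0.0127), its relative IL1A with -0.58, the death ligand TNFSF10 with -0.35 and the receptor CD40 with -0.24. IL1B was also lower in LGCAR than in CAR (-0.59, edgeR adjusted p = 0.0276). The median of that list in LGCAR against NG was -0.087, beside 0.0089 over all tested genes.

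Among 28 adaptors, ligases and kinases none was called in LG against NG. With both changes (LGCAR against NG) 2 fell and 1 rose, a share near that of all genes. MAP3K14, the kinase that drives processing of NFKB2 in the alternative pathway, was at 22.1 ± 0.302 CPM in LGCAR and 27.1 ± 0.891 CPM in NG (SD, n = 3 each; log2 fold change -0.29, edgeR adjusted p = 0.00933). It was also lower in LGCAR than in CAR (-0.27, edgeR adjusted p = 0.0214). RIPK2, an adaptor kinase of bacterial sensing, changed by -0.26 and TAB3, an adaptor of the kinase MAP3K7, by 0.27. The median of that list was -0.0075 in LGCAR against NG.

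Among 21 other subunit and inhibitor genes 1 rose in LG against NG, NLRC5, a regulator of MHC class I genes reported to restrain NF-kB, by 0.35 (edgeR adjusted p = 0.0123), and by 0.33 without LG 3. In LGCAR against NG, NLRC5 rose by 0.29, while NFKBIB, which encodes IkB-beta, changed by -0.44 (edgeR adjusted p = 0.0130) and TNIP3, a relative of TNIP1, by -0.55. NFKBIB was at 18.5 ± 0.726 CPM in LGCAR and 25.2 ± 0.492 in NG (SD, n = 3 each).

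Among 28 tested NF-kB targets outside the 10 genes, 1 rose in LG against NG and 27 were not called. It was CXCL2, a neutrophil chemokine, at 134 ± 19.2 CPM in LG and 87.4 ± 0.201 in NG (SD, n = 3 each; log2 fold change 0.61, edgeR adjusted p = 0.00426), and its log2 fold change was 0.48 without LG 3. The targets had a median of 0.077 for LG against NG, -0.11 for LGCAR against NG and -0.19 for LGCAR against LG, beside 0.0065, 0.0089 and -0.0014 over all tested genes. In LGCAR against NG 2 fell and none rose, a share under that of all genes. LCN2, an iron-scavenging lipocalin, was at 74.5 ± 2.76 CPM in LGCAR and 124 ± 14.6 in NG (SD, n = 3 each; -0.74, edgeR adjusted p = 0.00458), and CD83, an immune surface protein, changed by -0.43. LCN2 was also lower in LGCAR than in CAR (-0.55, edgeR adjusted p = 0.0285). No gene of the 4 lists was called by edgeR in CAR against NG, in LGCAR against LG or for the difference between the cariporide changes. Of the 17 calls made in these lists, 14 were lost when some 1 library was left out; CXCL2 in LG and MAP3K14 and LCN2 in LGCAR, each against NG, kept theirs under all alternatives run. CD40, RIPK2, TAB3 and TNIP3 in LGCAR against NG lost theirs with the replicate block over all groups and kept them with the block in those groups alone. The list calls in LGCAR against CAR were all lost with the ribosomal RNA share as a covariate. LCN2 was then at -0.31, IL1B at -0.52 and MAP3K14 at -0.24 (edgeR adjusted p = 0.326, 0.312 and 0.275).

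**Figure D4:**
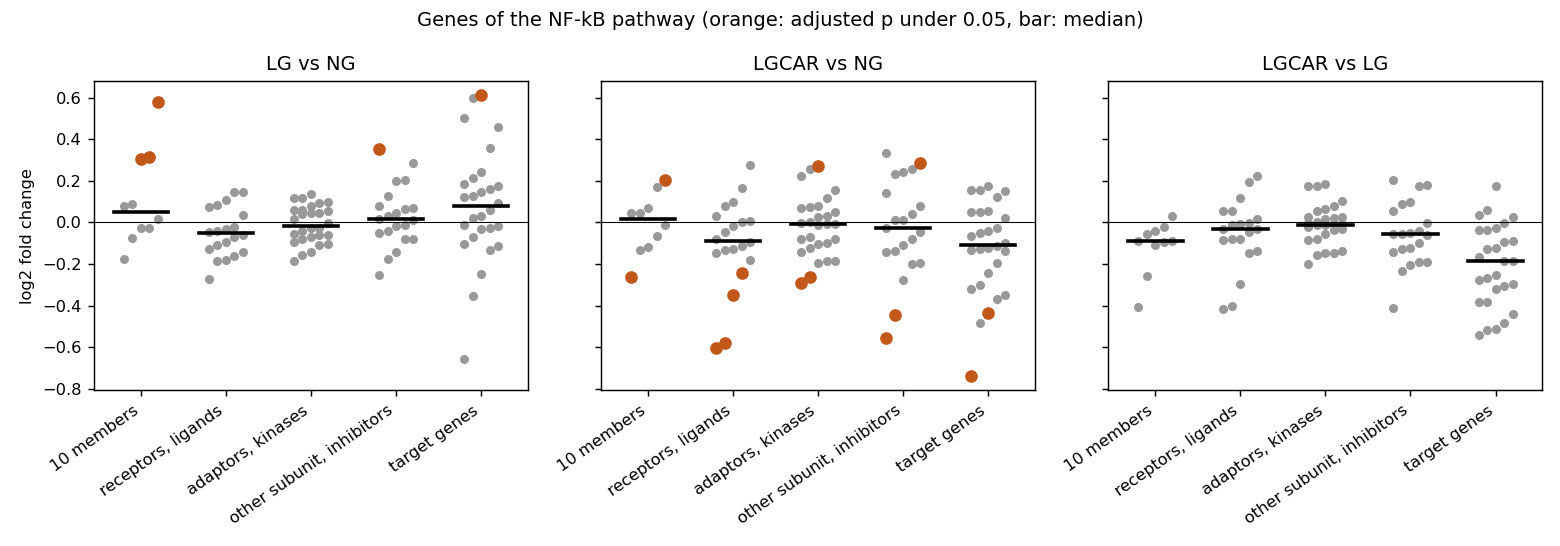
Log2 fold changes (vertical axis) of the 10 genes and of the tested genes of the 4 pathway lists in 3 comparisons; each point is a gene, orange points have an edgeR adjusted p under 0.05 and black bars are medians. The targets have medians of 0.077 in LG against NG and -0.19 in LGCAR against LG.

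Genes whose log2 CPM followed TNFAIP3 most closely over the 12 libraries, among 10819 others with a mean of at least 5 CPM, were FBXO32, a ubiquitin ligase subunit (Pearson r = 0.95), DUSP5, a phosphatase of ERK (0.95), and TBC1D2, a regulator of Rab proteins (0.94). Those closest to NFKBIA were ANKRD1, an ankyrin-repeat protein (0.98), DKK1, a secreted Wnt inhibitor (0.98), and SPRY2, a feedback inhibitor of growth factor signalling (0.97). Over the 9 libraries outside LG the same pairs had r of 0.77, 0.82 and 0.90 for TNFAIP3 and of 0.94, 0.95 and 0.88 for NFKBIA. Within the group of 10, TNFAIP3 correlated with BIRC3 (r = 0.87) and NFKBIA (0.85), and NFKBIA with RELB (0.84), whereas BIRC3 and TNIP1 ran in opposite directions (r = -0.73). These values over 12 libraries describe likeness only, since libraries of a group share their treatment and all genes of a library share its depth.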

How the data were processed

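RNA of 12 MDA-MB-231 libraries was sequenced after Trizol extraction of total RNA and directional NEBNext Ultra II preparation, per the labels' protocols. The values deposited by the authors are raw counts per gene symbol, 1 table for each library. The submitters' processing notes list fastp, STAR, Salmon, GATK and GRCh38; the counting tool, versions and strandedness: not given in the sources used here.

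Genes passing filterByExpr were fitted over all 12 libraries with edgeR 4.0.16 (TMM, robust quasi-likelihood, R 4.3.3), 1 mean per group and 6 contrasts; p-values were adjusted by Benjamini and Hochberg over the 15104 tested genes. DESeq2 1.42.0, other scalings, no filter, the compared groups alone, a replicate block, the ribosomal RNA share (37 genes) and left-out libraries were alternatives; correlations outside LG and alternatives for list genes were added after seeing the data. A replicate block in the compared groups alone was also added then, because same-numbered libraries correlated in their deviations from group means at 0.151 to 0.179 between LG and NG and at 0.136 to 0.475 between LGCAR and NG, above the 0.1 set for pairing in every pair. Between all groups, 7 of 18 same-numbered pairs and 12 of 36 other pairs were above 0.1. Libraries are not stated to be separate cultures, so p-values may measure technical spread. Replicate pairs differed beyond counting error (chi-square per degree of freedom 2.82 to 24.6).

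Members and lists were chosen with earlier results of these data known. All 10 members are named; from each list up to 4 called genes with the smallest p in a comparison, and the 3 genes most correlated with TNFAIP3 and NFKBIA. Coordinates and promoters are RefSeq's on GRCh38.p14, counted from 1; exon lengths are from GENCODE 29. Figures used matplotlib 3.10.9.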

Additional observations from a re-analysis of the deposited data

How the results depend on the processing

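Over 60 log2 fold changes (10 genes, 6 comparisons), 404 of 420 values with a library left out and 473 of 490 under the other settings kept their side of the threshold, and none that was called changed sign; 49 uncalled values did, all of results at most 0.14 in size. The cause of lost calls was not tested. Among the 10 genes the number called was 2 in LG against NG with each library left out (3 with all), 1 to 2 in LGCAR against NG and 0 in LGCAR against CAR; it was 0 in both of the last with NG 1 and LGCAR 3 left out together. In LGCAR against CAR it was also 0 with only the groups compared, with the replicate block and with the ribosomal RNA share as a covariate, and in LGCAR against LG it was 1 with DESeq2 or no filter.

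Counts of all called genes moved too. With no filter on low counts 15 were called for LGCAR against LG, 391 against CAR and 2 for the interaction, and with DESeq2 20, 419 and 5, and 2 in CAR against NG. With only the groups compared 118 were called in LG and 3542 in LGCAR against NG. With the replicate block the counts were 147 in LG and 682 in LGCAR against NG and 135 in LGCAR against CAR; in the compared groups alone it gave 1678 in LG and 3752 in LGCAR against NG. Same-numbered libraries correlated above 0.1 between those groups, but not between LG and LGCAR (-0.0336 to 0.0957) and not throughout with CAR (-0.297 to 0.205). Those of NG and CAR were all negative (-0.270 to -0.180), and the labels state no pairing. The ribosomal RNA share gave 762 in LG against NG, 21 in LGCAR against CAR and 0 for the interaction. Without NG 1 and LGCAR 3 the counts were 2 in CAR, 87 in LG and 263 in LGCAR against NG, 2 for LGCAR against LG, 55 against CAR and 2 for the interaction. With 1 library left out they ran from 0 to 2 in CAR against NG, 83 to 364 in LG against NG, 136 to 1544 for LGCAR against NG, 1 to 3 against LG, 51 to 188 against CAR and 1 to 3 for the interaction.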
